A study of Mus musculus with 2 samples.

Results

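The SNARE and membrane fusion genes described here are 35 of the 32285 genes measured in a droplet single-cell RNA sequencing study of mouse cortex. They were chosen by gene symbol, and all 35 symbols were found in the deposited gene list. By role they are 4 syntaxins of the plasma membrane, 4 members of the SNAP-25 family, 6 vesicle-associated membrane proteins (VAMPs), 8 SNAREs of endosomes, lysosomes and the trans-Golgi network, 7 SNAREs that act between endoplasmic reticulum and Golgi, 4 genes of the disassembly machinery and 2 Sec1/Munc18 genes.

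SNARE proteins fuse a transport vesicle with its target membrane: a SNARE on the vesicle zips into a bundle with SNAREs on the target and pulls the membranes together. The ATPase NSF, recruited by the SNAP adaptors Napa, Napb and Napg, then unwinds the bundle, and Sec1/Munc18 proteins guide its assembly. Neurons release transmitter with a dedicated set (Snap25, syntaxin 1 and Vamp2), whereas relatives such as Snap23, Vamp3, Vamp8 and Stx4a serve secretion and membrane recycling in many cell types.

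The cortex was taken at postnatal day 5 from wild-type mice (WT) and from mice with a mutation of Katnal2 (Mut), a gene for a katanin-like protein of the family that severs microtubules. Each genotype gave 1 library: the tissue was dissociated with enzymes, cells were collected by flow sorting, and 10x Genomics droplets were used for capture. The sources used here do not give the mutated part of Katnal2, the sort gate, the strain or the number of animals, and the design text speaks of 3 replicates per sample that the barcodes do not tell apart. With 1 library per genotype there is no test, no p-value and no biological replicate, and a difference between the libraries cannot be told apart from a difference between genotypes.

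The WT library held 93664707 unique molecular identifiers (UMIs, each standing for 1 captured RNA molecule) and the Mut library 97891513. Barcodes kept as cells had 1000 or more UMIs, 500 or more genes and a mitochondrial share of no more than 20%, and numbered 11024 in WT, with a median of 6446 UMIs, and 10102 in Mut, with a median of 7625.5. Barcodes with Xist and no Y-linked UMI made up 47.3% of those of assignable sex in WT and 65.6% in Mut, so both libraries pooled animals of both sexes. Katnal2 had 327 UMIs, or 3.87 counts per 1000000 UMIs (CPM, 95% interval 3.46 to 4.31), in the WT library and 426, 4.82 CPM (4.37 to 5.30), in the Mut library; since the mutated part is not known, these levels do not check the labels.

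Barcodes were placed in cell classes by counting distinct marker genes, as set out in the methods, and each class is named for the markers it resembles: inhibitory neuron-like (1519 barcodes in WT, 1042 in Mut), astroglia-like (5000 and 4696), oligodendrocyte precursor-like (OPC, 1950 and 1761), microglia-like (448 and 339), border-associated macrophage-like (98 and 234), endothelial-like (248 and 319), mural-like (264 and 281) and fibroblast-like (59 and 153). The suffix is left out below. Cajal-Retzius (50 and 40 barcodes), excitatory neuron (26 and 25) and ependymal (10 and 16) barcodes were too few for comparisons and are given as levels only, a choice made after their numbers were seen. The neurons recovered from this cortex were therefore mainly inhibitory. Their leading genes were Dlx6os1, Sp9, Dlx5, Dlx1, Igfbpl1 and Dlx2, with Sp8 further down the list. Since Dlx2 is a transcription factor of young interneurons, the class is not read here as mature neurons. Its median was 3902 UMIs in WT and 4436.5 in Mut, against 8154.5 and 9471 in astroglia. A stricter marker rule kept 1378 of the 1519 WT and 986 of the 1042 Mut inhibitory neurons, and the rest lay near the limit of the class. Barcodes that met the markers of more than 1 class were left out, 863 (7.83%) in WT and 834 (8.26%) in Mut, and 39 barcode names occurred in both libraries.

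Levels are CPM of the UMIs summed over a class in a library, and intervals are exact 95% intervals that cover counting error only. UMI counts carry no length correction, so levels are compared between classes for 1 gene, never between genes. RNA free in the suspension was read from barcodes of 10 to 100 UMIs, and by the level of haemoglobin genes it made up between 0.667% and 1.74% of the UMIs in the main classes other than endothelial cells. In endothelial cells the same measure gave 30.6% in WT and 33.2% in Mut, and the source of that haemoglobin was not tested.

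The promoters of 3 members are shown because these genes differed strongly between classes and stand for 3 patterns, neuron and endothelial (Stx1a), neuronal (Napb) and lowest in inhibitory neurons and OPCs (Vamp8). The sequences are from RefSeq on mouse build GRCm38 and run 5′ to 3′ on the gene's own strand up to its start, trimmed to bases outside annotated exons. Capitals mark the cAMP response element half-site TGACG and the GC box GGGCGG, searched on both strands together with the E box CACGTG and the CCAAT box CCAAT.
Stx1a, chr5:135023232-135023481, plus strand: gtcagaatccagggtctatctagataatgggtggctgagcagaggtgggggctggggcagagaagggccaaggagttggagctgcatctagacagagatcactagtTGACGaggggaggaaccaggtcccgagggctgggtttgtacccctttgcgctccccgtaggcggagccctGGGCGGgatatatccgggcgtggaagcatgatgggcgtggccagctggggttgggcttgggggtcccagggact
Napb, chr2:148732468-148732670, minus strand: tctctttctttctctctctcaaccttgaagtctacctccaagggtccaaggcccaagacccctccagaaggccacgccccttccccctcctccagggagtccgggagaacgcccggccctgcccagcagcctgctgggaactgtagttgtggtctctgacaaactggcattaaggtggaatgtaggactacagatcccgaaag
Vamp8, chr6:72390704-72390917, minus strand: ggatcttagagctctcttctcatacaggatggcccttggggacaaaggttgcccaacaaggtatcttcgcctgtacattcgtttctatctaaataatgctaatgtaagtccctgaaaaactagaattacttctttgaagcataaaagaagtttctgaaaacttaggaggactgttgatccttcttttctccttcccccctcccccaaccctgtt
The Stx1a window was 62.0% G or C, that of Napb 57.6% and that of Vamp8 42.5%. In the 250 bases upstream of the start, TGACG occurred in 10 of the 30 members found in the RefSeq promoter table and in 17.9% of all 27025 promoters, GGGCGG in 17 members and 32.9%, CACGTG in 5 members and 6.05%, and CCAAT in 10 members and 34.5%. These matches describe the letters of the windows and do not mark binding sites.

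Snap25, on chromosome 2 (136713453 to 136782428, GRCm38), encodes the plasma membrane SNARE of transmitter release. Among the 8 main classes it was highest not in inhibitory neurons but in OPCs, the precursors of myelinating cells. Its level was 65.5 CPM (61.1 to 70.3) in WT OPCs and 75.2 CPM (70.3 to 80.5) in Mut OPCs, against 34.0 (29.9 to 38.6) and 44.4 (39.1 to 50.3) in inhibitory neurons, and these intervals did not overlap. Astroglia held 4.15 CPM in WT and 4.45 in Mut, and the other 5 main classes between 0 and 3.38. It was far higher in the small neuron classes, with 292 CPM in WT and 413 in Mut Cajal-Retzius cells, and 362 and 426 in excitatory neurons, levels that rest on few barcodes. In excitatory neurons 1 barcode held 33.8% of the Snap25 UMIs in WT and 74.2% in Mut.

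The same order held for the share of barcodes with a Snap25 UMI. In OPCs 30.3% of WT and 34.7% of Mut barcodes had at least 1 UMI, in inhibitory neurons 13.9% and 20.1%, and in microglia, which should lack the gene, 0.446% and 1.47% at median depths of 5822 and 6711 UMIs. After each barcode was thinned to 1000 UMIs the shares were 7.23% and 8.23% in OPCs, 3.09% and 3.26% in inhibitory neurons and 0.480% and 0.532% in astroglia. In endothelial cells 0 of 248 WT barcodes had a Snap25 UMI, which allows a share of up to 1.48% by the exact interval, and 6 of 319 Mut barcodes did (1.88%).

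Snap25 was also read in subsets of the class, a description added after its level was seen. In the 1495 WT OPC barcodes without a UMI of any neuron marker its level was 65.8 CPM, and in the 1282 such Mut barcodes it was 76.2 CPM, inside the intervals of the whole class. Barcodes with a UMI of Gpr17, a receptor of committed precursors, held 66.2 CPM in WT and 75.1 in Mut, and those without held 62.5 and 76.1. Inhibitory neurons were split in the same way by a UMI of Dlx2, a transcription factor of young interneurons. Barcodes without a Dlx2 UMI (244 in WT, 111 in Mut) held 59.4 CPM (43.8 to 78.7) in WT and 73.2 (49.7 to 104) in Mut, those with such a UMI 30.8 (26.7 to 35.5) and 42.1 (36.7 to 48.0). The barcodes without it were also shallower, with median depths of 3018 and 3436 UMIs against 4141 and 4613, and the part of depth was not tested.

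The other SNAP-25 family members had other patterns. Snap23, the relative found in most non-neuronal cells, was highest in border-associated macrophages, at 142 CPM in WT and 114 in Mut, and lowest among the main classes in inhibitory neurons, at 13.3 and 15.05. Snap47, an unusual member found on several inner membranes, was highest in Cajal-Retzius cells (307 and 301 CPM), stood at 84.9 and 87.4 in OPCs and was lowest in microglia and macrophages, between 7.83 and 13.6. Snap29, which acts in autophagy and endosomal traffic, varied less and was highest in macrophages, at 34.8 CPM in WT and 61.9 in Mut.

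Of the UMIs of these 4 genes together, Snap25 gave 28.5% (25.5 to 31.7) in WT and 33.7% (30.3 to 37.3) in Mut inhibitory neurons. The share was 32.8% and 35.1% in OPCs, 4.40% and 4.41% in astroglia, 46.5% and 55.7% in Cajal-Retzius cells and 55.9% and 64.1% in excitatory neurons. The share was thus lower in inhibitory neurons than in OPCs in both libraries, with intervals that overlapped. Overlap alone does not show that the shares were alike. After barcodes were thinned to equal depth, the share fell in Mut inhibitory neurons and rose in OPCs of both libraries. In Mut the point values of these classes lay further apart after thinning. The thinned shares rest on a single random draw with fewer UMIs, and a change with depth was not tested. In both libraries the inhibitory neurons stood below the small neuron classes. The excitatory neuron shares lean on 1 barcode, which held 33.8% of the Snap25 UMIs in WT and 74.2% in Mut.

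**Figure D1:**
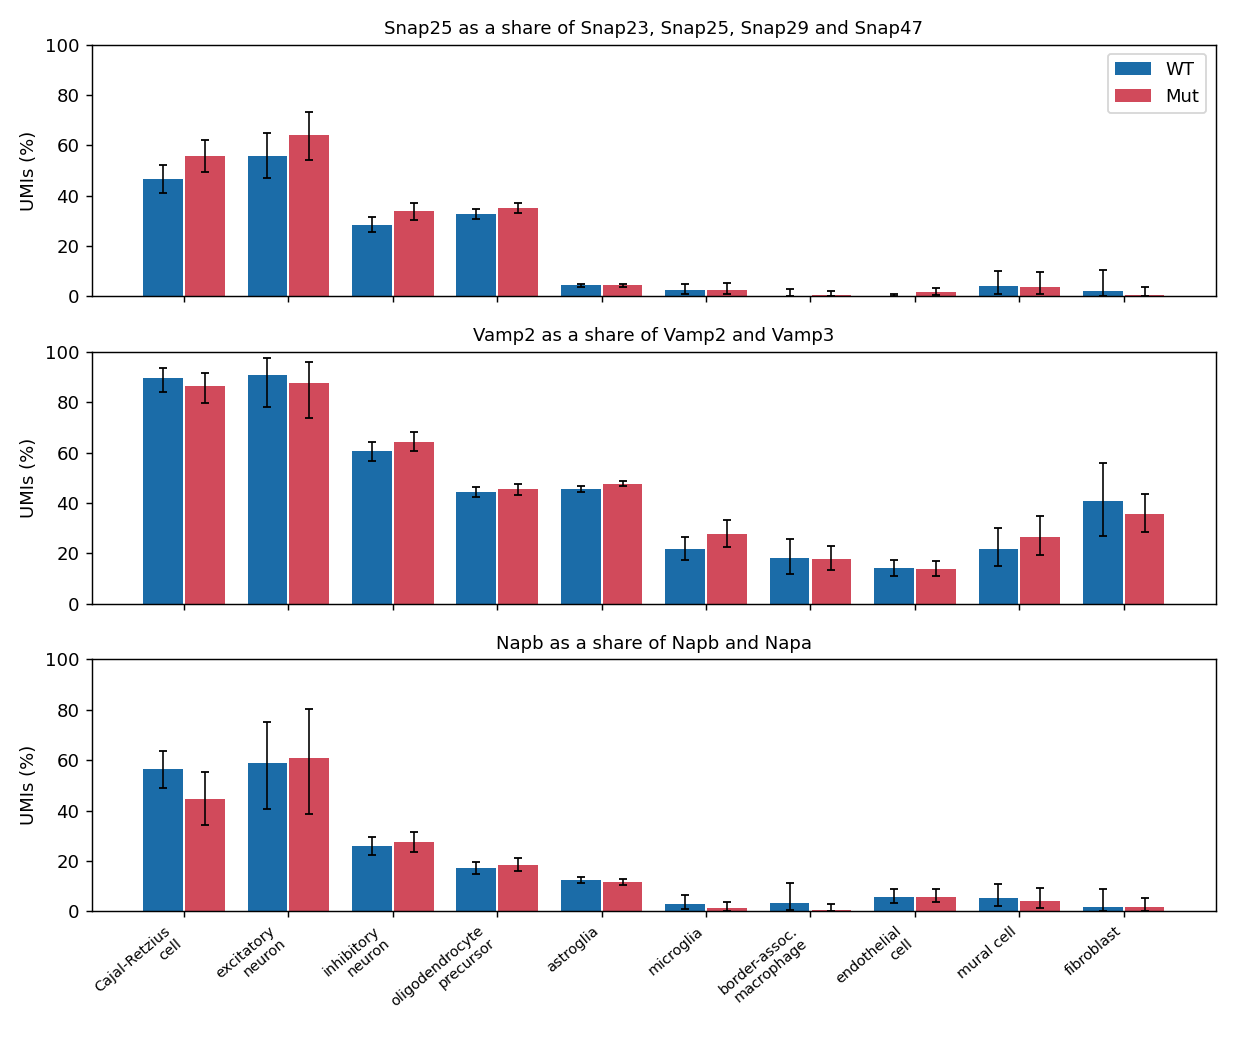
Share of UMIs in percent (vertical axes, 0 to 100) that Snap25 took within its family, Vamp2 within Vamp2 and Vamp3, and Napb within Napb and Napa, by cell class in the WT and Mut libraries; bars are the shares and lines their exact 95% intervals. Snap25 stood at 32.8% and 35.1% in OPCs and 4.40% and 4.41% in astroglia, and all 3 shares were higher in Cajal-Retzius cells and excitatory neurons than in inhibitory neurons. In excitatory neurons 1 barcode held 33.8% of the Snap25 UMIs in WT and 74.2% in Mut.

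Stx1a, on chromosome 5 (135023482 to 135051100), encodes the plasma membrane syntaxin of synapses, and among the 8 main classes its highest level was in endothelial cells. There it had 38.1 CPM (31.8 to 45.3) in WT and 37.9 (32.1 to 44.3) in Mut, against 6.25 (4.56 to 8.37) and 8.14 (5.96 to 10.9) in inhibitory neurons and 2.67 and 3.30 in astroglia. Mural cells came next, at 8.45 and 16.8 CPM, with intervals that did not reach the endothelial ones. The level in endothelial cells was close to that in Cajal-Retzius cells (45.8 and 48.6 CPM) and below the point values in excitatory neurons (51.0 and 64.5), with overlapping intervals.

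A UMI of Stx1a was found in 33.5% of WT and 33.2% of Mut endothelial barcodes, at median depths of 9115.5 and 9321 UMIs, and in 0.446% and 1.77% of microglia. Thinned to 1000 UMIs, the endothelial shares were 3.63% and 3.13% and those of inhibitory neurons 0.790% and 0.576%. The level held without barcodes that carried a UMI of a neuron marker, 34.6 CPM in WT and 41.7 in Mut, and without those that carried a haemoglobin or Alas2 UMI, 40.5 and 44.4. That last subset was read because haemoglobin and Alas2 summed to 2612 CPM in WT and 2600 in Mut endothelial cells, far above the other classes. Free RNA held Stx1a at 15.8 and 15.7 CPM, lower than the endothelial level. Snap25 and Napb, other genes of the neuronal set, stood at 0 and 1.71 CPM and at 5.07 and 4.64 CPM in these endothelial cells.

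The other 3 plasma membrane syntaxins were each highest outside the neurons. Stx3, a syntaxin of apical membranes and postsynaptic sites, was measured with few UMIs and was highest in endothelial cells (8.05 and 8.79 CPM) and OPCs (5.56 and 4.77). Stx2, also called epimorphin, had 30.2 CPM in WT and 40.2 in Mut macrophages and 6.81 and 6.02 in inhibitory neurons, its lowest main class in both libraries. Stx4a, the syntaxin of surface delivery in many cells, was likewise lowest in inhibitory neurons, at 19.5 and 16.3 CPM, and stood between 68.3 and 83.7 in fibroblasts and mural cells.

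**Figure D2:**
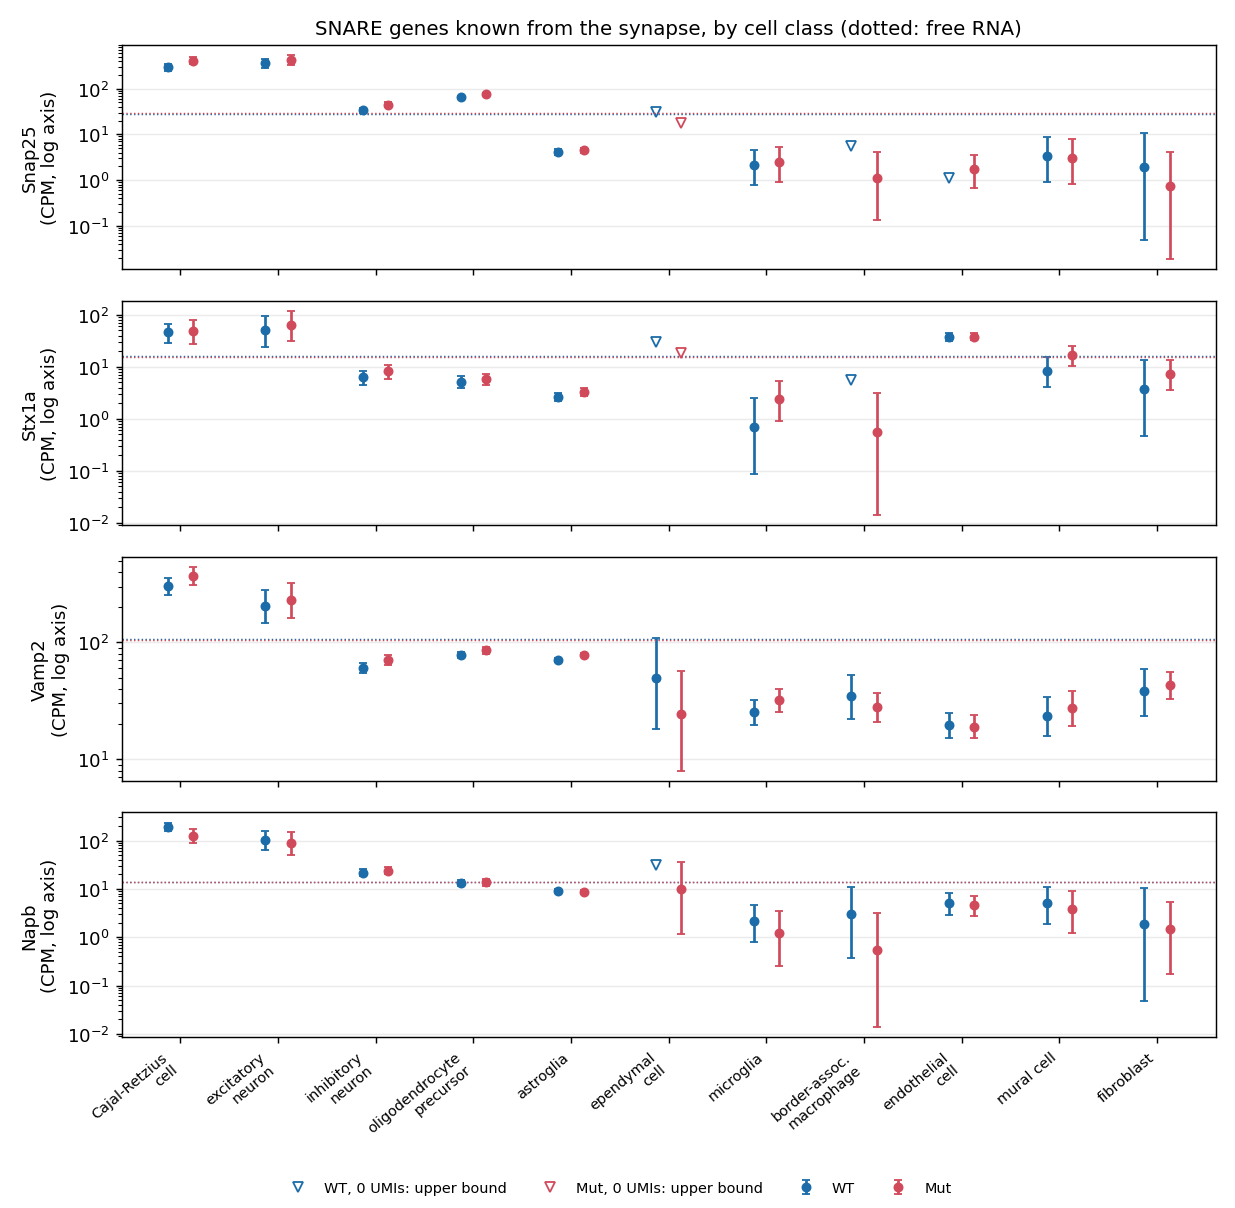
Levels in CPM (vertical log axes) of the neuronal members by cell class in the WT and Mut libraries, with exact 95% intervals; open triangles are upper bounds where no UMI was seen and dotted lines the level in free RNA. Snap25 was higher in OPCs (65.5 and 75.2 CPM) than in inhibitory neurons (34.0 and 44.4), and Stx1a was highest of the 8 main classes in endothelial cells (38.1 and 37.9).

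Among the VAMPs, Vamp2, the vesicle SNARE of synapses, was spread over neural classes. It had 60.7 CPM in WT and 70.8 in Mut inhibitory neurons, 77.8 and 85.4 in OPCs and 70.2 and 78.5 in astroglia, against 302 and 371 in Cajal-Retzius cells. Endothelial cells held 19.7 and 19.1 CPM, the lowest of the main classes. Vamp3 (cellubrevin), its relative in recycling endosomes, ran the other way, with 157 and 128 CPM in macrophages, 120 and 118 in endothelial cells and 39.6 and 39.1 in inhibitory neurons.

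The share of Vamp2 among Vamp2 and Vamp3 UMIs set neurons apart from glia. It was 60.5% (56.9 to 64.1) in WT and 64.4% (60.5 to 68.2) in Mut inhibitory neurons, 45.6% and 47.8% in astroglia, 44.4% and 45.5% in OPCs and 14.04% and 13.95% in endothelial cells. In Cajal-Retzius cells it reached 89.8% in WT and 86.5% in Mut. Vamp2 itself was not higher in inhibitory neurons than in astroglia, so the difference in share lay in Vamp3.

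Vamp8, on chromosome 6 (72385223 to 72390703), the SNARE of late endosomes, autophagosomes and secretory granules, had the widest measured range over the main classes in both libraries. Its level was 428 CPM in WT and 379 in Mut macrophages, 311 and 269 in microglia, 118 and 114 in endothelial cells, 101 and 95.3 in mural cells and 91.3 and 146 in fibroblasts. Inhibitory neurons held 1.53 (0.763 to 2.74) and 2.12 CPM and OPCs 1.91 and 1.77, the lowest classes. The range from lowest to highest class was 280-fold in WT and 214-fold in Mut. It was found in 81.0% and 80.8% of microglia and in 0.724% and 1.06% of inhibitory neuron barcodes. Free RNA held Vamp8 at 39.9 and 43.2 CPM and made up 1.07% and 1.33% of the UMIs in that class by haemoglobin. Astroglia lay between, at 17.4 and 20.5 CPM.

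The remaining VAMPs were flatter. Vamp4, of the trans-Golgi network, lay between 27.0 and 60.5 CPM over the main classes, and Vamp7, of late endosomes and lysosomes, between 26.0 and 61.6. Vamp1, a synaptic VAMP used mainly by later-maturing neurons and motor pathways, was near the limit of detection, with at most 7.08 CPM in any main class of either library.

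**Figure D3:**
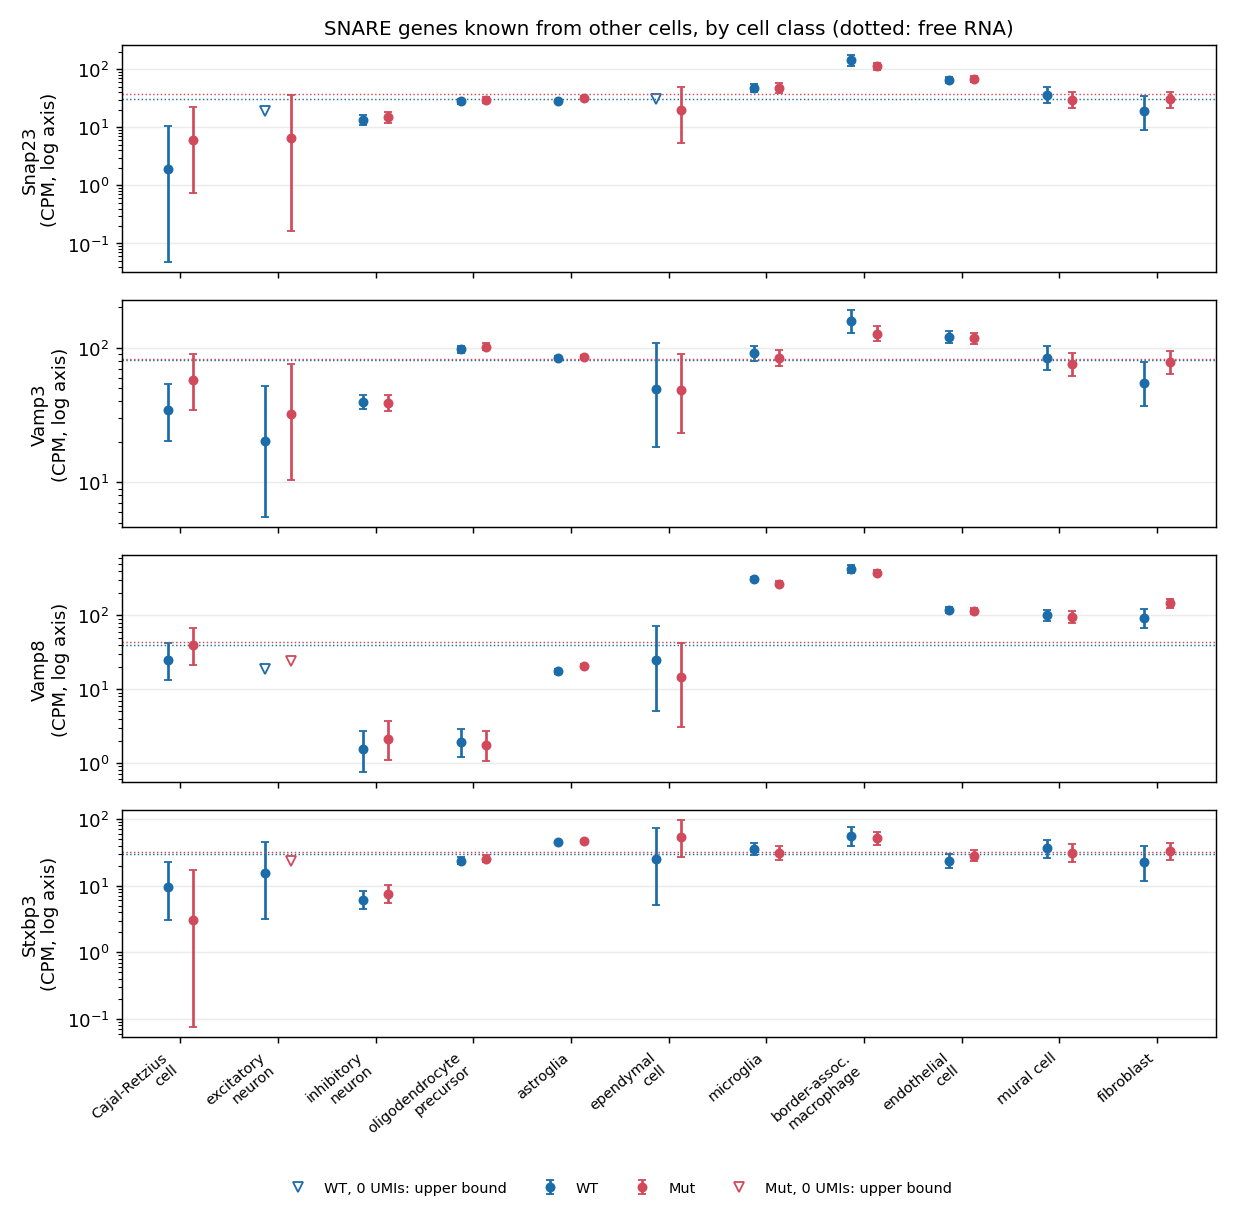
Levels in CPM (vertical log axes) of members outside the neuronal set by cell class in the WT and Mut libraries, with exact 95% intervals; open triangles are upper bounds where no UMI was seen and dotted lines the level in free RNA. Vamp8 and Snap23 were highest in border-associated macrophages (428 and 379 CPM, 142 and 114 CPM) and low in inhibitory neurons (1.53 and 2.12, 13.3 and 15.05).

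Of the SNAREs of endosomes, lysosomes and the trans-Golgi network, Stx6 had the highest ratio of inhibitory neurons to astroglia, and Stx17 the lowest. Stx6 recycles cargo from endosomes to the trans-Golgi network and had 63.2 CPM in WT and 66.9 in Mut inhibitory neurons, 27.8 and 29.6 in astroglia and 87.9 and 101 in endothelial cells, its highest main class. Stx16, its partner, was highest in inhibitory neurons in both libraries, at 73.8 and 69.6 CPM. Stx7, a late endosome syntaxin, was highest in microglia (130 and 153 CPM) and macrophages (129 and 135), and lowest in fibroblasts (22.8 and 29.4). Stx17, which joins autophagosomes to lysosomes, was highest in OPCs (39.6 and 38.9 CPM) and lowest in inhibitory neurons (12.6 and 7.97). Stx12, Stx8, Vti1a and Vti1b, which act in the same compartments, varied by no more than 2.88-fold between main classes in either library.

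SNAREs between endoplasmic reticulum and Golgi were found in all 8 main classes of both libraries. Stx5a, Stx18, Gosr1, Gosr2, Bet1, Bet1l and Ykt6 carry cargo through the early secretory pathway that all cells need. The ratio of highest to lowest class lay between 1.72 and 4.06 for these 7 genes, the highest being Bet1l in Mut, from 23.2 CPM in microglia to 94.04 in fibroblasts. Ykt6 was highest in microglia (72.6 and 78.5 CPM), and Bet1 was low in inhibitory neurons (27.8 and 25.5) beside astroglia (50.1 and 46.5).

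In the disassembly machinery, Napb, on chromosome 2 (148693985 to 148732467), is the SNAP adaptor of brain. It and Stx16 were the 2 members with their highest main class level in inhibitory neurons, in either library. Napb had 21.7 CPM (18.4 to 25.4) in WT and 23.9 (20.04 to 28.3) in Mut inhibitory neurons, 13.2 and 13.8 in OPCs, 8.95 and 8.59 in astroglia and at most 5.07 in the other 5 classes. Cajal-Retzius cells held 193 and 125 CPM. Napa, the adaptor of most cells, was almost even, at 62.0 and 63.0 CPM in inhibitory neurons and 63.7 and 66.0 in astroglia.

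Napb gave 25.9% (22.5 to 29.6) of Napb and Napa UMIs in WT and 27.5% (23.6 to 31.7) in Mut inhibitory neurons, 12.3% and 11.5% in astroglia and 17.2% and 18.4% in OPCs. In Cajal-Retzius cells the share was 56.4% and 44.6%. Nsf, the ATPase itself, was highest in OPCs (63.7 and 64.3 CPM) and stood at 25.3 and 27.6 in inhibitory neurons. Napg, the remaining adaptor, varied by 1.96-fold in WT and 1.92-fold in Mut.

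Among the main classes, the 2 Sec1/Munc18 members were both highest in border-associated macrophages. Stxbp2, the Munc18 of blood cell granules, was nearly limited to the macrophage classes, with 52.9 CPM in WT and 57.4 in Mut border-associated macrophages, 34.9 and 37.8 in microglia and at most 4.41 in any other main class. Stxbp3, the broadly expressed Munc18, had 56.0 and 51.3 CPM in macrophages, 45.5 and 46.8 in astroglia and 6.11 and 7.61 in inhibitory neurons, its lowest main class.

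Set against astroglia in the same library, 5 of the 34 members with at least 50 UMIs were at least 2-fold higher in WT inhibitory neurons (Stx1a, Stx3, Snap25, Stx6 and Napb), while 17.6% of the 13060 genes compared were. In the Mut library it was 4 of 33 (Stx1a, Snap25, Stx6 and Napb), against 19.6% of 13177 genes; Stx3 had too few UMIs there. At least 2-fold lower were 6 in WT (Stx2, Stx4a, Snap23, Vamp3, Vamp8 and Stxbp3), against 24.5% of all genes, and those 6 with Stx17 in Mut, against 24.3%. As shares, 5 of 34 and 6 of 34 lie near or under the background, so the members as a group did not lean towards inhibitory neurons. Their median log2 ratio was -0.01 in WT and -0.07 in Mut, beside 0.07 and 0.09 over all genes.

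Snap25 differed most, with a ratio of 8.21 (6.74 to 10.0) in WT and 9.99 (8.28 to 12.1) in Mut. Napb followed at 2.42 (1.997 to 2.92) and 2.78 (2.27 to 3.39), Stx1a at 2.34 (1.62 to 3.33) and 2.47 (1.74 to 3.46), and Stx6 at 2.27 (2.03 to 2.53) and 2.26 (2.01 to 2.53). At the other end were Vamp8, at 0.0877 and 0.103, and Stxbp3, at 0.134 and 0.163. Stx2 stood at 0.334 and 0.259, Stx4a at 0.468 and 0.349, Snap23 at 0.469 and 0.464 and Vamp3 at 0.472 and 0.455. These 10 genes were picked for passing 2-fold in both libraries, so their shared direction is no separate result. Between them lay Vamp2 at 0.865 and 0.902, Nsf at 1.01 and 1.12 and Napa at 0.973 and 0.955.

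Scaling moved these counts. With trimmed-mean (TMM) scaling, the median of all genes went from 0.07 to -0.15 on the log2 scale in WT and from 0.09 to -0.18 in Mut, and the shares of all genes at least 2-fold higher and lower became 13.2% and 28.0% in WT and 13.5% and 28.5% in Mut. Among the members Stx6 came out below 2-fold in both libraries (1.95 and 1.88), and Bet1 joined the lower genes. After thinning to 1000 UMIs, 2 of 31 members were higher in WT (Snap25 and Napb, with 16.7% of genes) and 3 of 31 in Mut (Snap25, Stx6 and Napb, with 18.0%), with the ratio of Snap25 at 6.45 in WT and 6.13 in Mut.

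**Figure D4:**
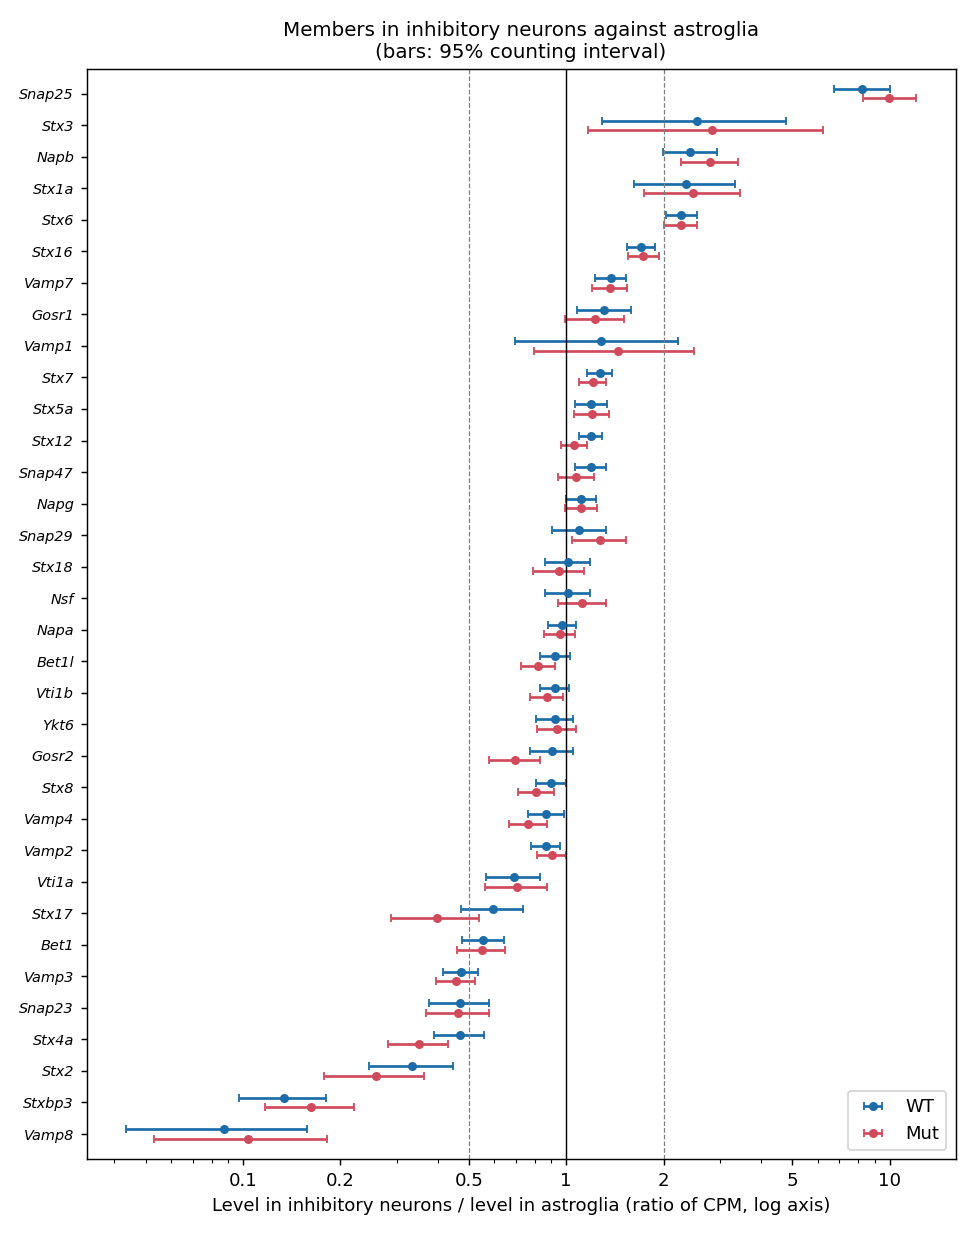
Ratio of the CPM in inhibitory neurons to that in astroglia (horizontal log axis) for the members other than Stxbp2 in the WT and Mut libraries. Points are ratios, lines exact 95% intervals, the solid line marks 1 and dashed lines 2-fold. Stx3 in Mut had under 50 UMIs. Snap25 lies farthest to the right (8.21 and 9.99) and Vamp8 farthest to the left (0.0877 and 0.103); most of the members lie between the dashed lines.

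Against OPCs the neuronal side was empty. None of the 33 members compared in WT and none of the 32 in Mut was at least 2-fold higher in inhibitory neurons, while 7.76% and 8.85% of all genes were. At least 2-fold lower were 7 in WT (Stx2, Stx3, Snap23, Vamp3, Stx17, Nsf and Stxbp3), against 24.5% of all genes, and 8 in Mut (Stx4a and Bet1 added, Snap23 no longer among them), against 24.1%.

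The 5 classes outside the neural lineage were then set against inhibitory neurons by the same 2-fold rule, with the share of all genes in parentheses. Compared with microglia, 6 of 32 members were higher in WT neurons (35.2%), namely Snap25, Snap47, Vamp2, Stx12, Bet1l and Napb, and 8 lower (17.1%); in Mut 7 of 33 were higher (32.9%) and 8 lower (17.5%). Compared with border-associated macrophages, 5 of 32 were higher (42.1%) and 9 lower (14.9%) in WT, and 6 higher (41.3%) and 9 lower (18.0%) in Mut. The lower members in both of these comparisons and both libraries included Stx2, Stx4a, Snap23, Vamp3, Vamp8, Stxbp2 and Stxbp3.

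Compared with endothelial cells, 5 of 32 were higher (29.5%) and 8 lower (19.2%) in WT, and 4 higher (30.1%) and 9 lower (19.7%) in Mut, with Stx1a among the lower. Compared with mural cells, 6 of 32 were higher (30.0%) and 7 lower (15.9%) in WT, and 3 higher (28.8%) and 7 lower (16.7%) in Mut. Compared with fibroblasts, 5 of 31 were higher (29.9%) and 5 lower (14.4%) in WT, and 3 of 32 higher (27.5%) and 7 lower (17.0%) in Mut. In each of these 5 classes and both libraries the share of members that was higher in neurons lay under the background and the share that was lower lay above it. Snap25 and Napb were at least 2-fold higher in inhibitory neurons than in each of the 6 other main classes apart from OPCs, in both libraries.

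Other genes of the pathway were counted from lists by function, in inhibitory neurons against astroglia. Of all genes compared, 17.6% were at least 2-fold higher and 24.5% lower in WT, and 19.6% and 24.3% in Mut. Of 15 genes of synaptic vesicles and release, among them the calcium sensor Syt1 and the active zone protein Bsn, 8 were at least 2-fold higher and 4 lower in inhibitory neurons than in astroglia in WT, and 9 and 4 in Mut, with median log2 ratios of 1.45 and 1.69. Of 9 other SNAREs 7 could be compared, with 0 higher and 1 lower in each library. Of 10 other Sec1/Munc18 and syntaxin-binding genes 1 was higher and 1 lower in each. Of 21 genes of the tethering complexes exocyst, HOPS and COG, which hold a vesicle before fusion, 0 were higher in WT, 1 in Mut and 0 lower in either.

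Between the libraries, 234 of the 280 pairs of a member and a main class had at least 50 UMIs. A ratio of Mut to WT of at least 25% above 1 was found in 33 of them (14.2% of all pairs of gene and class reached this) and a ratio of at least 20% below 1 in 11 (6.65%); these limits mirror each other on a log scale and are used for all such counts here. The interval of the ratio lay above 1 in 28 pairs (14.9% of all) and below 1 in 10 (6.56%). These shares lie near the background, and most differences were small. In the 3 largest classes few members passed these limits. Stx1a and Snap25 were higher (14.2% of genes) and Stx17 lower (4.52%) among 31 members in inhibitory neurons. None was higher in astroglia (7.97%) or OPCs (7.89%), and lower were Stx3 in astroglia (4.16%), on 35 and 26 UMIs, and Vamp1 in OPCs (3.7%), on 39 and 16 UMIs. Intervals lay above 1 for 2 members in inhibitory neurons (Snap25 and Vamp2, with 16.4% of genes) and below 1 for 2 (Stx8 and Stx17, with 5.32%). In OPCs they lay above 1 for 4 (Snap25, Vamp2, Stx6 and Stx7, with 15.1%) and below 1 for Vamp1 (6.7%).

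Snap25 was higher in Mut than in WT in inhibitory neurons by 1.31-fold (1.09 to 1.56) and in OPCs by 1.15-fold (1.04 to 1.27), and in astroglia the ratio was 1.07 (0.872 to 1.32). The inhibitory neuron ratio was 1.51 among barcodes with Xist only and 1.35 among those with Y-linked UMIs only. It was 1.01 after thinning to 1000 UMIs, which left fewer Snap25 UMIs, and 1.15 when classes were set by marker UMIs. Among markers of the class, Dlx5 stood at 1.15, Gad1 at 1.10, Gad2 at 1.01 and the neuronal tubulin regulator Stmn2 at 0.955 in Mut relative to WT. The summed level of the 10 astroglial markers in this class was 283 CPM in WT and 363 in Mut, and its part in the result was not tested.

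Stx1a had a ratio of 1.30 (0.844 to 2.01) in inhibitory neurons, on 45 and 46 UMIs, and of 0.993 (0.781 to 1.26) in endothelial cells. Vamp2 was higher in Mut in inhibitory neurons (1.17), astroglia (1.12) and OPCs (1.10), each with an interval above 1; with TMM scaling it stood at 1.09 in inhibitory neurons and in astroglia, and the number of classes with an interval above 1 was 1. Napb differed by less than counting error in the 3 classes where it was compared, with ratios of 1.10 (0.869 to 1.40), 0.959 (0.831 to 1.11) and 1.04 (0.832 to 1.31).

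The endosomal SNAREs Stx7 and Stx6 and the lipid-anchored Golgi SNARE Ykt6 had point ratios above 1 in all 8 main classes. The median ratio of all genes was also above 1 in each of these classes, with log2 values from 0.038 in endothelial cells to 0.103 in microglia. No share of all genes was counted for runs of this kind, above or below 1. For Stx7 the interval lay above 1 in 4, at 1.06 in astroglia, 1.16 in OPCs, 1.17 in microglia and 1.29 in endothelial cells. With TMM scaling Stx7 kept a ratio above 1 in 7 classes, Ykt6 in 7 and Stx6 in 6, with the exceptions in inhibitory neurons (Stx7 and Stx6) and microglia (Ykt6 and Stx6). Stx8, a partner of Stx7 in late endosomes, was below 1 in 7 of 8 classes, and under TMM also in 7. Its intervals lay below 1 in inhibitory neurons (0.848), astroglia (0.941) and microglia (0.776). After thinning to 1000 UMIs, which left fewer UMIs, the ratio of Stx8 in inhibitory neurons turned to 1.02. Stx17 was lower in Mut inhibitory neurons, 7.97 against 12.6 CPM, a ratio of 0.630 (0.431 to 0.910) on 45 and 91 UMIs.

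In astroglia, the class with the most UMIs, intervals were narrowest. They lay above 1 for 11 of the 34 members (24.6% of genes), among them Vamp4 at 1.16, Vamp8 at 1.18, Snap23 at 1.14, Stx4a at 1.12, Stx2 at 1.14 and Stx12 at 1.10, and below 1 for 3 (Stx8, Stx16 and Bet1, with 10.6% of genes). None of these 14 passed the limits above.

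The smaller classes gave larger and less certain ratios. Of 29 members in microglia 6 were higher in Mut (20.7% of genes) and 3 lower (6.49%), with intervals leaving out 1 for Stx12 at 1.34, Napa at 1.29 and Stx8. By the interval alone 3 lay above 1 (14.1%) and 2 below (4.43%), the latter being Stx8 and Vamp8 at 0.866 (0.782 to 0.959). With TMM scaling 0 members were higher (9.27% of genes) and 6 lower (15.5%) past the limits, and the median of all genes in microglia went from 0.10 to -0.06 on the log2 scale. Astroglial markers in this class summed to 122 CPM in WT and 278 in Mut, and their part was not tested. In inhibitory neurons TMM scaling gave 0 higher and 3 lower members, with 8.14% of genes higher and 7.99% lower, and it made the shares of all genes 6.33% and 5.13% in astroglia and 5.63% and 5.17% in OPCs, where Stx3 and Vamp1 stayed the members past the limits. In border-associated macrophages 6 were higher (20.4% of genes), of which Snap29 at 1.78 (1.13 to 2.92) was the 1 member with an interval above 1 (7.33%), and Vamp4 was lower (11.4%), the 1 with an interval below 1 (4.38%). Astroglial markers in this class summed to 113 CPM in WT and 238 in Mut, and their part was not tested.

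Endothelial cells had 4 members higher (13.2% of genes) and 0 lower (8.02%), where intervals lay above 1 for Stx2 at 1.50 (1.01 to 2.25), Stx7 and Stx12 (11.1%) and for 0 members below 1 (6.61%). When free RNA was subtracted by the haemoglobin measure, Stx12 and Stxbp3 joined the higher members (17.9% of genes) and Napg the lower (15.4%). Mural cells had 7 higher (18.6%) and 2 lower (8.62%), with intervals above 1 for Stx6 at 1.94 (1.20 to 3.23) and Stx5a at 1.70 (1.11 to 2.64) (8.55%) and below 1 for 0 (4.03%), while endothelial markers in mural cells summed to 132 CPM in WT and 420 in Mut, a difference whose part was not tested. With TMM scaling mural cells had 6 higher (11.9%) and 3 lower (14.3%). Fibroblasts had 8 higher (24.6%) and 2 lower (14.4%), with intervals above 1 for Nsf at 3.26 (1.49 to 8.45), on 7 and 59 UMIs, and Vamp8 at 1.602 (1.16 to 2.24) (9.49%), and below 1 for Vamp4 (6.71%). That class is the least certain, since mural markers summed to 3673 and 2622 CPM in it and 21 of 59 WT barcodes and 73 of 153 Mut barcodes were placed there when classes were set by marker UMIs, which put Vamp8 at 0.870.

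Vamp4 was the single member past these limits in the same direction in 2 classes with intervals that left out 1. The share of all genes that met this rule was not counted. In border-associated macrophages it went from 60.5 CPM in WT to 39.6 in Mut, a ratio of 0.654 (0.438 to 0.990), and in fibroblasts from 57.0 to 33.8, a ratio of 0.592 (0.366 to 0.972). In astroglia it was higher in Mut, 54.3 against 46.6 CPM. With the stricter class rule the macrophage ratio was 0.850, and with TMM scaling its interval (0.452 to 1.02) held 1, while that of fibroblasts did not. When classes were set by marker UMIs, Vamp4 was not among the members past the lower limit in fibroblasts.

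**Figure D5:**
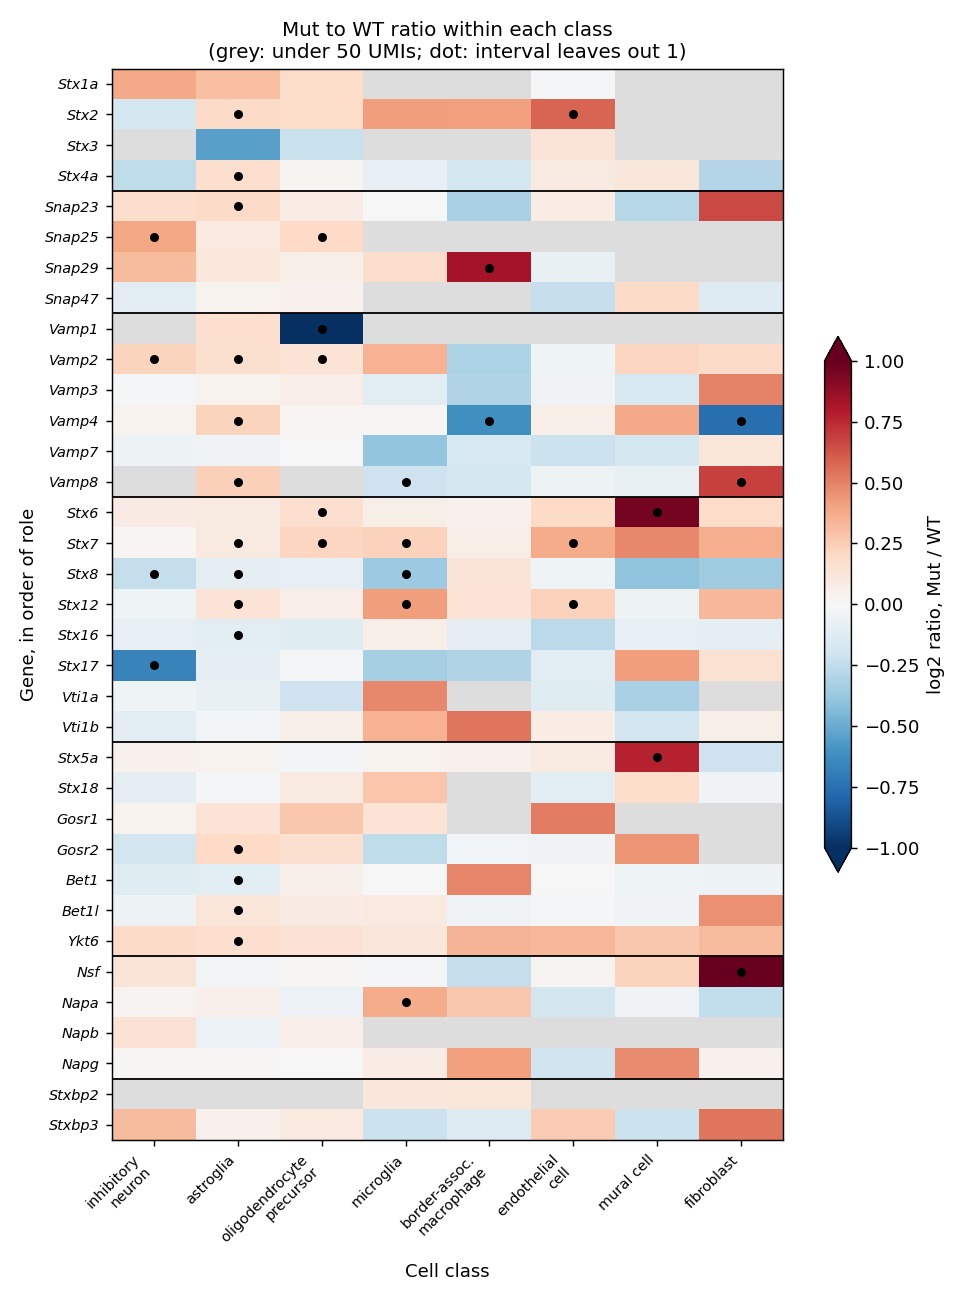
Ratio of Mut to WT level (colour, log scale) of the 35 members (rows, by role) in the 8 main classes (columns); grey cells had under 50 UMIs and dots mark an interval that leaves out 1. Colours end at a log2 ratio of 1 in either direction; most ratios are near 1 in astroglia, OPCs and inhibitory neurons, apart from Stx3 in astroglia, Vamp1 in OPCs and Snap25, Stx1a and Stx17 in inhibitory neurons, while Stx6 reached 1.94 in mural cells and Nsf 3.26 in fibroblasts.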

How the data were processed

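Droplet libraries of postnatal day 5 mouse cortex, 1 WT and 1 Mut, were analysed from the UMI count matrices that the authors deposited, made with Cell Ranger 4 per the file headers; the submitters' processing notes also name STAR and GRCm38. The matrices held 1957831 barcodes in WT and 1974760 in Mut, unfiltered. Barcodes were kept at 1000 UMIs, 500 genes and at most 20% mitochondrial UMIs. A barcode joined a class when it held at least 3 distinct markers and 37.5% of 1 of 15 marker lists, with a lead of 20 percentage points over the next; the stricter rule asked for 4 markers, 50% and a lead of 30. No doublet caller was run: barcodes that met more than 1 class were left out, and doublets within a class remain. Barcodes in no class numbered 434 (3.94%) in WT and 314 (3.11%) in Mut.

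UMI counts were summed per class and library and scaled to the library sum of that class. Intervals are exact at 95%: Poisson for levels, Clopper-Pearson for shares, conditional binomial for ratios. Where UMIs come from 1 library, these cover counting error only. Ratios needed 50 UMIs over both sums; a range against a class at 0 used a floor of 3 counts. Scripts were tested on simulated data. Python 3.11.15 (numpy 2.4.6, scipy 1.17.1, pandas 2.3.3) was used, with edgeR 4.0.16 in R 4.3.3 for TMM factors alone.

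Members described in full were those past 2-fold between inhibitory neurons and astroglia in both libraries, those past the limits between libraries in at least 2 classes with intervals leaving out 1, and their nearest relatives. The members and gene lists were chosen with earlier results of these data known.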

Additional observations from a re-analysis of the deposited data

Results flagged for a closer look

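For 2 members the Mut and WT libraries differed in opposite directions in different classes, each with an interval that left out 1. The share of all genes that met this rule was not counted, so the number of members is not read as a result. Vamp4 had a ratio of Mut to WT of 1.16 in astroglia, 0.654 in border-associated macrophages and 0.592 in fibroblasts. Vamp8 had a ratio of 1.18 in astroglia, 1.6 in fibroblasts and 0.866 in microglia. The Vamp8 ratio in fibroblasts was 0.870 when classes were set by marker UMIs. The Vamp4 ratio in macrophages was 0.850 under the stricter class rule, and with TMM scaling its interval (0.452 to 1.02) held 1. In fibroblasts Vamp4 was not past the lower limit when classes were set by marker UMIs. With 1 library per genotype the difference between classes was not tested.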

How the results depend on the processing

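No paired analysis was possible because each genotype gave 1 library and the labels carry no replicate numbers; for the same reason no library could be left out. Of the main counts and shares, 102 recomputed values stayed within 1.5 times or inside their interval and 22 did not; for single genes, 512 stayed, 50 moved and 2 turned direction. The WT count of members higher in inhibitory neurons than in astroglia went from 5 of 34 to 2 of 31 after thinning to 1000 UMIs (16.7% of all genes) and to 2 of 34 with a pseudocount of 5 CPM (11.3%), which also took the lower count from 6 to 3 (14.2%). Pairs higher in Mut went from 33 of 234 to 8 of 96 after thinning (15.4% of all pairs), and those lower from 11 of 234 to 17 of 234 with TMM scaling (9.11%) and to 20 of 263 at a minimum of 10 UMIs (12.4%). Thinning put the Snap25 share of its family at 26.6% in Mut inhibitory neurons, at 5.29% in WT and 5.51% in Mut astroglia, and at 38.5% and 39.1% in OPCs. It put the Vamp2 share at 67.5% in WT inhibitory neurons and 48.4% in WT astroglia, and the Napb share at 31.8% in WT inhibitory neurons and at 15.1% and 13.5% in WT and Mut astroglia. Barcodes with a Snap25 UMI went to 3.09% and 3.26% in inhibitory neurons, 0.480% and 0.532% in astroglia and 7.23% and 8.23% in OPCs, as thinned barcodes hold fewer UMIs. The ratio of Stx8 in inhibitory neurons turned to 1.02 after thinning, on fewer UMIs. That of Vamp8 in fibroblasts turned to 0.870 when classes were set by marker UMIs. Apart from the thinned shares of barcodes, the cause was not tested. Depth limits Stx3, Vamp1 and Stxbp2 in neurons and most members in fibroblasts and macrophages.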
